A study of Homo sapiens with 2 samples.

Results

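The S100 calcium-binding proteins described here are 10 genes of the S100 family, S100A2, S100A3, S100A4, S100A6, S100A10, S100A11, S100A13, S100A14, S100A16 and S100P, taken by gene symbol from a table of 50867 gene rows. The cells were HCT116, a human line established from a colorectal carcinoma. RNA was sequenced in 1 library from cells given an siRNA against PHF5A and in 1 library from cells given a control siRNA. PHF5A belongs to SF3b, the complex through which the U2 particle of the spliceosome grips the intron's branch point, and the study asked which transcripts it regulates in colorectal cancer cells. The siRNA sequence and the time after transfection are not given in the labels. With 1 library per group, no test across samples was possible, no p-value is given and no difference has a replicate check. Loss of PHF5A cannot be told apart from other actions of the siRNA with 1 knockdown library.

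S100 proteins are small proteins of vertebrates that carry a pair of calcium-binding loops called EF-hands and mostly act as dimers. Calcium opens a groove through which most of them bind partner proteins such as annexins and cytoskeletal proteins, and some are secreted and bind the receptor AGER (RAGE) on other cells. Many S100 genes lie together on the long arm of chromosome 1, and several are known for altered levels in epithelial cancers, where S100A4 is linked to metastasis.

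The members of the family did not move together between the libraries. Of the 9 members called expressed (1 FPKM or more in the higher library, FPKM being fragments per kilobase of gene length at a common library total), S100A4, S100A16 and S100A3 were at least 2-fold lower in the PHF5A knockdown library, and S100A14 was at least 2-fold higher. The entry of S100A3 lies inside that of S100A4, so their calls are not independent. The 3 lower of 9 members stood beside 6.2% of all 8957 expressed genes at least 2-fold lower, and the 1 higher member beside 2.53% at least 2-fold higher. Between these ends, S100A10, S100A6 and S100A13 were lower by less than 2-fold, and S100A11 and S100A2 had nearly equal values in the libraries. S100P was almost absent from both libraries, with 0 counts in the knockdown library and 3 in the control library.

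The 4 members past 2-fold span 73.4 kilobases on the minus strand of chromosome 1, and S100A14 is the next gene to S100A16. The 250 bases before their transcription starts are shown because these neighbours went in opposite directions. S100A16 has 2 RefSeq starts, and the one farther upstream is shown. They are from RefSeq (GRCh38.p14), read 5′ to 3′ on the gene's strand, with matches to the motifs searched in capitals.
S100A14, minus strand, chr1:153616326-153616575: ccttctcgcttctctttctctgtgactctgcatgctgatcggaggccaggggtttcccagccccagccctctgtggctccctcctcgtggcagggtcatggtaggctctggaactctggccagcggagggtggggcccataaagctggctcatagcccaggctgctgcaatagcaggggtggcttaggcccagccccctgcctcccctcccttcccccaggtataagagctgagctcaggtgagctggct
S100A16, minus strand, chr1:153613138-153613387: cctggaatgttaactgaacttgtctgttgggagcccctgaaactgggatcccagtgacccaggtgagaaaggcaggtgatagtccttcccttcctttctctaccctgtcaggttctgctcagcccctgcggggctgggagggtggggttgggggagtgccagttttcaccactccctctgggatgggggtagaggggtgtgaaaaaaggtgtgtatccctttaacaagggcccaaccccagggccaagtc
S100A4, minus strand, chr1:153545807-153546056: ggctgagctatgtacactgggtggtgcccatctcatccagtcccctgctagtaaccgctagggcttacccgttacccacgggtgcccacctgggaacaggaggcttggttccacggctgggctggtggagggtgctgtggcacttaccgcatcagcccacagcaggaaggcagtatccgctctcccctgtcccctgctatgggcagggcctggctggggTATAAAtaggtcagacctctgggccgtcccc
S100A3, minus strand, chr1:153549259-153549508: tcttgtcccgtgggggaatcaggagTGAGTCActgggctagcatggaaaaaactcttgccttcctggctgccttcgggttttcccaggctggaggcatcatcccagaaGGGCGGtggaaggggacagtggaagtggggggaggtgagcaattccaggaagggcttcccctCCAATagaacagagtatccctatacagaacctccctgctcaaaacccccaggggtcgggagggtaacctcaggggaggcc

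The motifs searched on both strands were the TATA box (TATAAA), the CCAAT box, the GC box (GGGCGG) and the AP-1 site (TGANTCA), and no matches overlapped in the windows shown. S100A4 had TATAAA beginning 31 bases before its RefSeq start. That start lies inside the gene's entry, which extends upstream to 153550136, and any start farther upstream was not searched. S100A3 had a CCAAT box beginning 80 bases before its start, a GC box at 142 bases and an AP-1 site, TGAGTCA, at 225 bases. In the S100A14 window and the S100A16 window shown none of the 4 motifs was found. The window of the other S100A16 start (chromosome 1, 153609356 to 153609605), not shown, had a GC box beginning 45 bases before that start and a CCAAT box, on the opposite strand, at both 29 and 237 bases. RefSeq lists 14 start windows for the 10 members. Among them TATAAA was in 3, against 10.7% of all 35114 windows, GGGCGG was in 6, against 42.6%, and TGANTCA was in 2, against 6.57%. CCAAT was in 3, against 32.0%. These matches describe letters only and say nothing of binding.

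The libraries themselves differed in composition. They had 25897412 counts (knockdown) and 26552789 counts (control), and PHF5A had 91 counts in the knockdown library, against 367 in the control library, in the direction of the label. Markers of colorectal epithelium took 1.40% of the knockdown counts and 1.43% of the control counts, and of 8 expressed markers 0 passed 2-fold on the log2(FPKM + 1) scale. Most of these counts were of KRT8, KRT19 and KRT18, with 136297, 114402 and 102172 in the knockdown library and 158631, 118971 and 92112 in the control library. The shares therefore mainly follow these keratins. KRT8, KRT18, KRT19, EPCAM and CDH1 were present in both. The expressed marker with the largest difference was CDX2, an intestinal transcription factor, with 367 counts in the knockdown library and 822 in the control library (log2 ratio -0.93 on that scale, but 2.18-fold lower after knockdown by CPM, with an interval of 1.93 to 2.48), while CDX1 was at 0 in both and LGALS4 and VIL1 had at most 2 counts. A list of 30 heart muscle markers summed to 559 counts in the knockdown library and 105539 in the control library, and 14 of them, MYH7 and PLN included, were at 0 in the knockdown library. Of 27 expressed heart markers 24 were at least 2-fold lower in the knockdown library. The 12 fibroblast markers summed to 1186 counts in the knockdown library and 4596 in the control library, with FAP at 0 in both, and 2 of 4 expressed were at least 2-fold lower. Of all expressed genes 6.2% were at least 2-fold lower. LUM and POSTN were at 0 in the knockdown library but had only 60 and 15 counts in the control library, under 1 FPKM. The 2 past 2-fold were COL3A1, with 31 counts in the knockdown library and 959 in the control library, and SPARC, with 16 and 621. COL1A1 and FN1, also expressed, were lower too, by less than 2-fold on the log2(FPKM + 1) scale, but FN1 was 3.58-fold lower by CPM. Also under 1 FPKM, PDGFRB had 42 counts in the knockdown library and 44 in the control library, and DCN had 9 and 8. Not every listed marker was thus clearly lower. The small RNAs RN7SL1, RN7SL2, RN7SK and RPPH1 took 24.0% of the knockdown counts and 15.4% of the control counts. The part of these differences in the S100 values was not tested, nor whether the S100 counts of the control library include RNA from a source other than HCT116 cells. In RNA from whole cultures, fewer cells that express a gene and less of its RNA per cell cannot be told apart.

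All expressed genes together had a median log2 ratio of knockdown to control of -0.15 (FPKM + 1 scale), and the 9 expressed S100 members had a median of -0.51, with a range of -1.35 to 1.15. On this scale 6 members lay below the median of all expressed genes and 3 above it. The 95% exact counting interval of the CPM ratio (CPM being a gene's counts relative to its library's total) lay wholly below 1 for 6 members and wholly above 1 for 1. Among all expressed genes the interval was wholly below 1 for 50.7% and wholly above 1 for 28.4%, so at these depths an interval that leaves out 1 is common. The 10 members together took 0.103% of the knockdown counts and 0.167% of the control counts, a 1.63-fold lower share in the knockdown library (interval 1.60 to 1.65). Most of these counts were of S100A6 and S100A16, so the share mainly follows these genes and does not describe each member. The ratio of knockdown to control of the summed member FPKM was 0.691. All intervals cover counting error only.

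**Figure D1:**
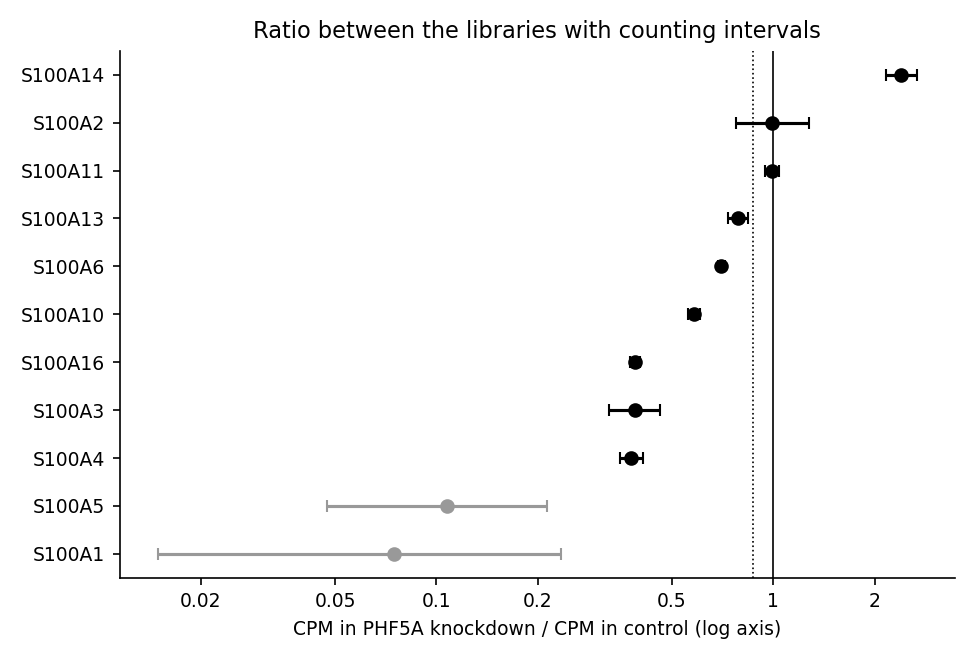
Ratio of CPM in the PHF5A knockdown library to CPM in the control library (log axis) for S100 genes with more than 3 counts in either library; points are ratios, bars the 95% exact counting intervals, black the members and grey S100A5 and S100A1, which are not members. The solid line is a ratio of 1 and the dotted line the median of the expressed genes (0.872); S100A14 alone among the members lies wholly to the right of 1.

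S100A4 binds nonmuscle myosin and is studied for its role in metastasis. It (ENSG00000196154, chromosome 1, 153543613 to 153550136, GRCh38) had 864 counts in the knockdown library and 2338 in the control library, or 16.6 FPKM (knockdown) and 43.9 FPKM (control). The difference was 2.64-fold, lower in the knockdown library, with an interval of 2.44 to 2.86.

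S100A3 binds zinc and is best known from the cuticle of the hair. Its entry (ENSG00000188015, chromosome 1, 153547329 to 153549372) lies wholly inside that of S100A4 on the same strand. S100A3 had 183 counts in the knockdown library and 484 in the control library, or 5.48 FPKM (knockdown) and 14.1 FPKM (control), a 2.58-fold lower level (interval 2.17 to 3.07). S100A3 took 17.5% of the counts of the pair in the knockdown library (exact interval 15.2 to 19.9) and 17.2% in the control library (15.8 to 18.6). The balance between these overlapping genes thus differed by less than counting error. Since reads in the shared span could be given to either, S100A3 and S100A4 are not independent measurements, and summed they had a log2 ratio of -1.39 by CPM.

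S100A16 is a widely expressed member that binds little calcium in its first EF-hand. It (ENSG00000188643, chromosome 1, 153606886 to 153613145) had 5237 counts in the knockdown library and 13822 in the control library, or 61.6 FPKM (knockdown) and 159 FPKM (control). Its level was 2.57-fold lower after knockdown (interval 2.49 to 2.66), and of all expressed genes 2.48% had a lower log2 ratio. No other entry of the table overlaps it.

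S100A14 is found mainly in epithelia and is a known ligand of AGER. It (ENSG00000189334, chromosome 1, 153614255 to 153616986) had 1182 counts in the knockdown library and 505 in the control library, or 16.8 FPKM (knockdown) and 7.0 FPKM (control). It was 2.40-fold higher in the knockdown library (interval 2.16 to 2.67), and 98.6% of expressed genes had a lower log2 ratio. S100A14 and S100A16 are separated by 1109 bases, and their comparison within a library needs no scaling between libraries. S100A14 took 18.4% of the counts of that pair in the knockdown library (exact interval 17.5 to 19.4) and 3.52% in the control library (3.23 to 3.84), so the ratio of S100A14 to S100A16 was 6.18-fold higher in the knockdown library (interval 5.54 to 6.89). Against S100A4 the ratio of S100A14 was 6.33-fold higher in the knockdown library (interval 5.56 to 7.21), and S100A14 took 57.8% of the counts of that pair in the knockdown library and 17.8% in the control library.

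**Figure D2:**
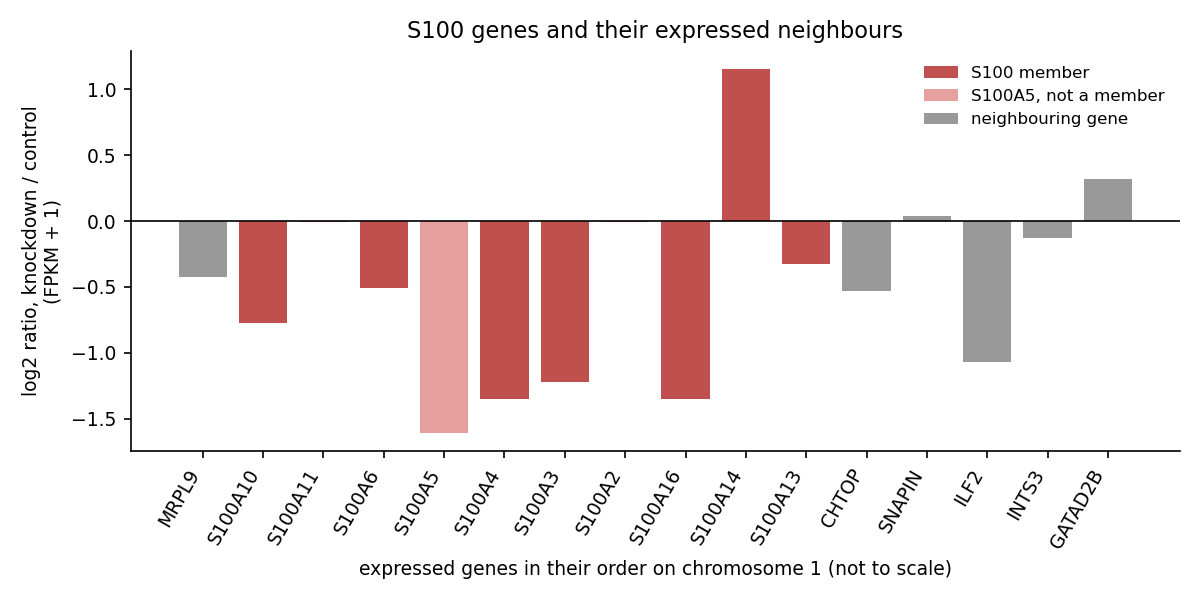
The log2 ratio of PHF5A knockdown to control (FPKM + 1) for expressed S100 genes and expressed protein-coding neighbours within 250 kilobases of a member, in their order on chromosome 1 (not to scale). Red bars are members, the pale bar S100A5 and grey bars the neighbouring genes; S100A14 (1.15) stands upright between S100A16 (-1.35) and S100A13 (-0.33), and S100A11 and S100A2 lie at 0 to the eye.

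S100A10 has lost calcium binding and forms a complex with annexin A2 at the cell membrane. It (ENSG00000197747, chromosome 1, 151982915 to 151994390) had 3758 counts in the knockdown library and 6638 in the control library, or 66.1 FPKM (knockdown) and 114 FPKM (control). The level after knockdown was 1.72-fold lower (interval 1.65 to 1.79).

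S100A6, or calcyclin, is tied to proliferating cells and binds the protein CACYBP. S100A6 (ENSG00000197956, chromosome 1, 153534599 to 153536244) had 10206 counts in the knockdown library and 14906 in the control library, the most of any member in both. Its FPKM was 195 in the knockdown library and 278 in the control library, 1.42-fold lower after knockdown (interval 1.39 to 1.46).

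S100A13 takes part in the release of FGF1, a growth factor without a signal peptide. It (ENSG00000189171, chromosome 1, 153618787 to 153631360) had 1494 counts in the knockdown library and 1948 in the control library, or 14.4 FPKM (knockdown) and 18.3 FPKM (control), a 1.27-fold lower level (interval 1.19 to 1.36). Its log2 ratio of -0.33 lay inside the middle of the expressed genes, of which 35.0% were lower. S100A13 overlaps S100A1 on the opposite strand and RP1-178F15.5 on its own strand, which had 107 counts in the knockdown library and 82 in the control library. Summed with these entries its log2 ratio was -0.33 by CPM.

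S100A11 is a partner of annexin A1 and takes part in membrane repair and in the growth response of keratinocytes. It (ENSG00000163191, chromosome 1, 152032506 to 152047907) had 3550 counts in the knockdown library and 3666 in the control library, or 202 FPKM (knockdown) and 203 FPKM (control). The CPM ratio was 0.993, and its interval of 0.948 to 1.04 holds 1. Its pseudogenes S100A11P1 and S100A11P2 had 0 counts in both libraries. Against S100A10, its neighbour 38.1 kilobases away, the ratio of S100A11 was 1.71-fold higher in the knockdown library (interval 1.61 to 1.82).

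S100A2 is found in the nucleus of epithelial cells. It (ENSG00000196754, chromosome 1, 153561108 to 153567890) had 129 counts in the knockdown library and 133 in the control library, or 1.69 FPKM (knockdown) and 1.70 FPKM (control). The interval of its ratio, 0.774 to 1.28, is the widest among the expressed members relative to the ratio itself, so a difference inside it was not detectable at this depth. Whether S100A2 and S100A11 came out lower or higher than in the control library turned on the scaling. Their log2 ratios were -0.01 as deposited and 0.14 for each after centring on the median of the expressed genes. S100P (ENSG00000163993, chromosome 4, 6693069 to 6697170), a ligand of AGER that also binds ezrin and is high in many carcinomas, had too few counts in both libraries for a ratio.

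**Figure D3:**
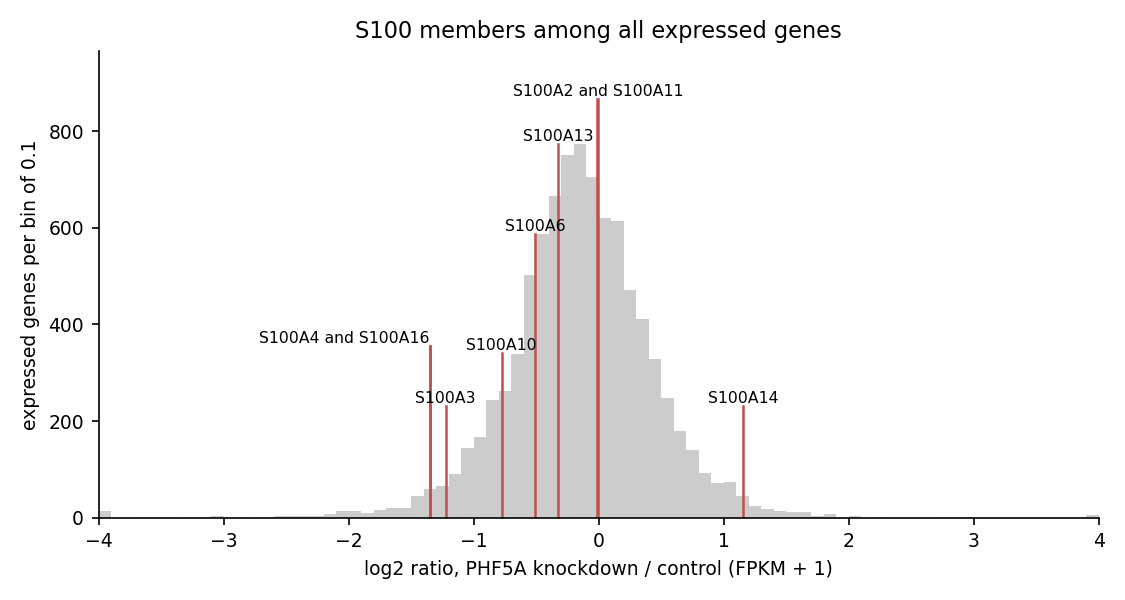
Number of expressed genes per bin of 0.1 of the log2 ratio of PHF5A knockdown to control (FPKM + 1), with values beyond 4 in either direction counted in the outermost bins; red lines mark the 9 expressed S100 members, and their heights carry no value. S100A4, S100A16 and S100A3 lie in the lower tail, S100A14 in the upper tail and the remaining 5 members in the body of the distribution.

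Levels set side by side between members depend on the length by which counts were divided. The length behind the deposited FPKM equalled the sum of all distinct annotated exons within 0.5% for 86.3% of 11920 genes with at least 50 control counts. Exons that overlap between transcripts are counted more than once in that sum. For S100A6 this length was 2019 bases, where its exons merged cover 971 bases, and for S100A14 it was 2715 and 1277 bases, while for S100A11 both were 680 bases. A gene with many annotated transcripts therefore has a lower deposited FPKM at the same number of reads, so levels are also given on the merged exon length of GENCODE release 29.

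On the merged length the order in the knockdown library was S100A6 (406 FPKM), S100A11 (202), S100A16 (119), S100A10 (94.0), S100A14 (35.7), S100A4 (32.5), S100A13 (26.0), S100A3 (7.40), S100A2 (3.18) and S100P (0). In the control library it was S100A6 (578 FPKM), S100A16 (306), S100A11 (203), S100A10 (162), S100A4 (85.9), S100A13 (33.1), S100A3 (19.1), S100A14 (14.9), S100A2 (3.20) and S100P (0.0883). S100A14 thus had rank 5 in the knockdown library and rank 8 in the control library. Its counting interval overlapped that of S100A4 in the knockdown library on both lengths, and no other neighbours in order overlapped on the merged length in either library. On the deposited length S100A11 (202 FPKM) and S100A6 (195) were first and second in the knockdown library with overlapping intervals, and S100A6 (278) stood above S100A11 (203) in the control library. On the merged length S100A6 was above S100A11 in both libraries.

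**Figure D4:**
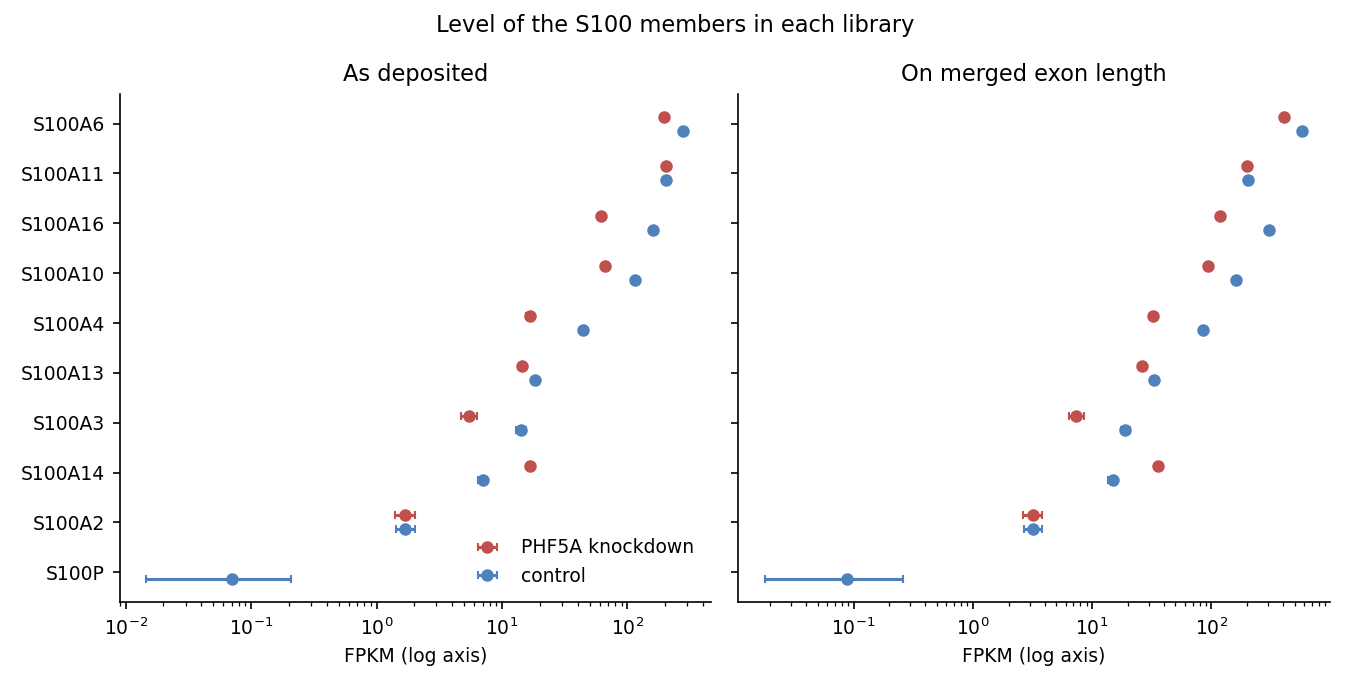
FPKM of the 10 S100 members in the PHF5A knockdown library (red) and the control library (blue) on log axes, as deposited (left) and on merged exon length (right); points are the single library's value and bars the 95% exact Poisson interval. S100P has no red point because it had 0 counts in the knockdown library; S100A14 is the only member whose red point lies clearly to the right of its blue point in both panels.

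The remaining S100 genes were nearly silent except S100A5, the only one called expressed, which was at least 2-fold lower in the knockdown library (log2 ratio -1.61). Of these 11 genes, 7 had 0 counts in both libraries: S100A7, S100A7A, S100A7L2, S100A12, S100B, S100G and S100Z. S100A8 and S100A9, the subunits of calprotectin of neutrophils and monocytes, had at most 1 count in each library. S100A5, which is known from the olfactory system and lies between S100A6 and S100A4, had 9 counts in the knockdown library and 86 in the control library (0.327 FPKM in the knockdown library and 3.04 FPKM in the control library). That is a CPM ratio of 0.107 (interval 0.0475 to 0.213), lower than for any of the 9 expressed members. S100A1, the main S100 protein of heart muscle, had 3 counts in the knockdown library and 41 in the control library, a ratio of 0.0750 (interval 0.0149 to 0.235). The heart markers above were lower in the knockdown library too. The 7 genes that join an S100 domain to a long repeat, among them FLG and TCHH, had 4 counts in the knockdown library and 0 in the control library.

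The neighbours of the S100 genes did not share a direction. Of 21 protein-coding genes within 250 kilobases of a member on chromosome 1, 6 were expressed, with a median log2 ratio of -0.28. ILF2, which encodes a double-stranded RNA-binding factor, was the only one past 2-fold, with 43.3 FPKM in the knockdown library and 92.1 FPKM in the control library. At least 2-fold lower were 6.2% of all expressed genes, so 1 of 6 does not set these neighbours apart. CHTOP is a chromatin and mRNA export factor, 2.6 kilobases from S100A13 by the deposited entries. It had 6.10 FPKM in the knockdown library and 9.27 FPKM in the control library. By the entries it is the nearest gene outside the family for 7 of the 9 members on chromosome 1. A RefSeq start window of S100A13 (153634362 to 153634611) lies inside the CHTOP entry. THEM4, nearest to S100A10, was under 1 FPKM in both libraries, with 77 counts in the knockdown library and 99 in the control library. TCHHL1, nearest to S100A11, was at 0 in both. Near S100P, 5 of 8 protein-coding genes were expressed and none passed 2-fold, and its nearest gene, MRFAP1L1, had 70 counts in the knockdown library and 54 in the control library.

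Annexins are calcium-dependent membrane-binding proteins, several of which form complexes with S100 dimers. Of 13 annexin genes 8 were expressed, 1 was at least 2-fold lower and 0 were at least 2-fold higher, with a median log2 ratio of -0.29. Among all expressed genes 6.2% were at least 2-fold lower and 2.53% at least 2-fold higher, so 1 of 8 does not set the annexins apart. The lower annexin was ANXA2, the partner of S100A10, with 37.8 FPKM in the knockdown library and 87.0 FPKM in the control library, a log2 ratio of -1.18. ANXA5 had 21.9 FPKM in the knockdown library and 37.4 FPKM in the control library (log2 ratio -0.74). ANXA1, the partner of S100A11, went the other way with 7.56 FPKM in the knockdown library and 4.65 FPKM in the control library, a log2 ratio of 0.60. ANXA6 had 26.3 FPKM in the knockdown library and 18.0 FPKM in the control library (log2 ratio 0.53).

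Of 14 genes for further partners, receptors and activators, 9 were expressed, 1 was at least 2-fold lower and 0 were higher, with a median of -0.44. Beside the 6.2% lower and 2.53% higher of all expressed genes, 1 of 9 does not set this list apart. The lower gene was PLAU, the urokinase gene that makes plasmin from the plasminogen which S100A10 can bind, with 15.3 FPKM in the knockdown library and 64.9 FPKM in the control library. EZR, which encodes ezrin, had 170 FPKM in the knockdown library and 262 FPKM in the control library (log2 ratio -0.62). MYH9, which encodes the myosin heavy chain that S100A4 binds, had 33.1 FPKM in the knockdown library and 47.9 FPKM in the control library (log2 ratio -0.52). Chosen after the values were seen, AHNAK, a scaffold that binds S100A10 with ANXA2, had 23.0 FPKM in each library, and S100PBP, named for binding S100P, had 33 counts in the knockdown library and 186 in the control library. The receptors were barely present, AGER with 19 counts in the knockdown library and 43 in the control library, and TLR4 with 1 in the knockdown library and 2 in the control library.

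Other genes with EF-hands served as a wider set. Of 29 listed, 19 were expressed, 2 were at least 2-fold lower and 0 were higher, and the median log2 ratio of -0.11 lay near that of all expressed genes. Of all expressed genes 6.2% were at least 2-fold lower and 2.53% higher, so 2 of 19 does not set this list apart. CALM3, one of the genes for calmodulin, had 31.2 FPKM in the knockdown library and 74.4 FPKM in the control library (log2 ratio -1.23). CAPN1, the large subunit of calpain-1, had 27.0 FPKM in the knockdown library and 61.8 FPKM in the control library (log2 ratio -1.17). SRI, which encodes sorcin, had a log2 ratio of -0.70, and CALB2, which encodes calretinin, had -0.63.

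The calls on S100A4, S100A3 and S100A16 did not turn on how the libraries were scaled. Under 7 scalings, the deposited one included, their log2 ratios stayed between -1.77 and -1.07, at least 2-fold lower each time. Leaving the heart markers out of the totals could hardly move them (S100A4 -1.35 with and without). That scaling changes the totals only and takes no S100 reads away. S100A14 was at least 2-fold higher under 6 of the 7. The exception was TPM rescaling (each library set to an equal FPKM sum), where its log2 ratio was 0.78, the median of all expressed genes was -0.47 and S100A10 was at least 2-fold lower (-1.19). In that sum the small RNAs made up 74.7% in the knockdown library and 64.4% in the control library. With them left out of the sum, an alternative added after the data were seen, S100A14 had a log2 ratio of 1.30 and S100A10 of -0.71. The split of all expressed genes between at least 2-fold higher and lower moved as well. It was 227 higher and 555 lower as deposited, 345 and 358 after median centring, 341 and 389 after upper-quartile scaling, 380 and 500 without the small RNAs in the totals, and 107 and 1405 with TPM rescaling. Genes called expressed numbered 8957, 8957, 8927, 9817 and 9664 in that order, and with TPM rescaling 14.5% of them were lower.

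**Figure D5:**
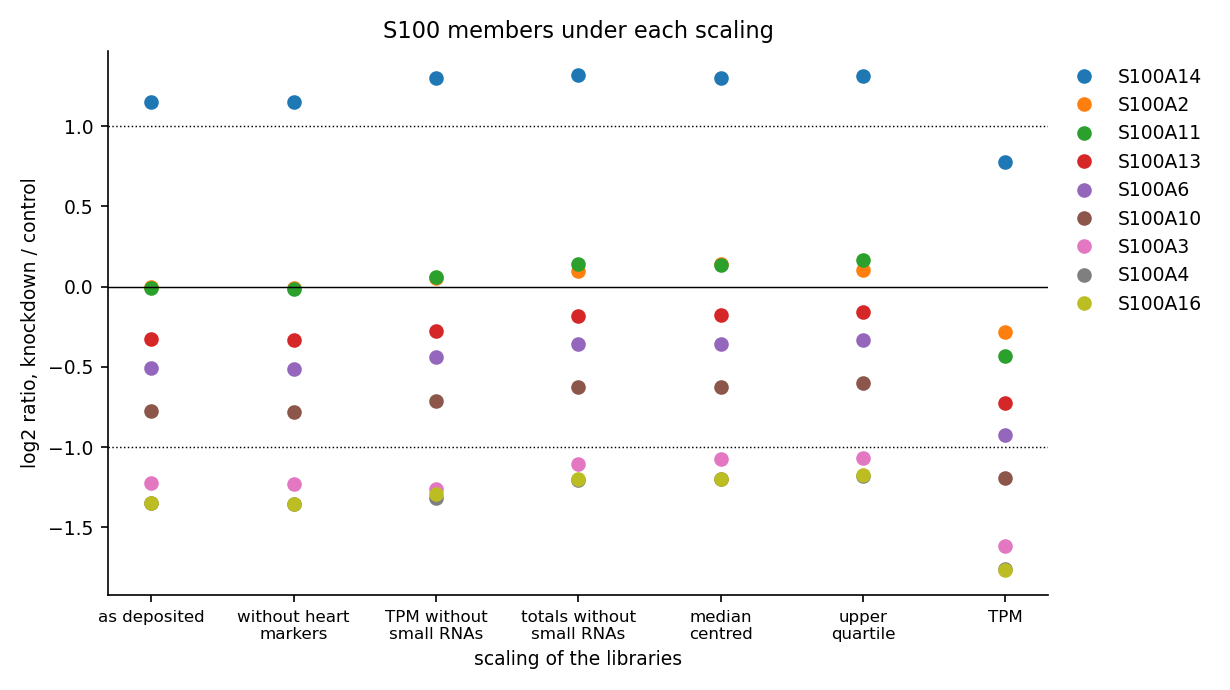
The log2 ratio of PHF5A knockdown to control of each expressed S100 member (colours) under 7 scalings of the libraries; dotted lines mark 2-fold in either direction and the solid line equal values. S100A14 is highest in every column and S100A4, S100A16 and S100A3 are lowest, and with TPM rescaling all points sit lower, with S100A14 at 0.78 under the upper dotted line.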

How the data were processed

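Trizol-extracted total RNA went into TruSeq Stranded Total RNA libraries, per the labels' protocols. The submitters' processing notes list HISAT2 2.0.4, Cuffdiff and hg38 (GRCh38). Not given in the sources used here are the annotation, the strand setting and the counting of reads with several matches. The deposited table gives, for each gene and library, whole-number counts and FPKM, per the file headers. Of its 50869 lines, 2 held 1 broken entry and were left out.

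Ratios were log2((knockdown FPKM + 1)/(control FPKM + 1)), which understates changes at low levels. A gene counted as expressed if either library had 1 FPKM or more, and as higher or lower at 2-fold by size alone. CPM is the count scaled to the library total, and CPM ratios carry 95% exact conditional binomial (Clopper-Pearson) intervals, levels exact Poisson intervals, shares exact binomial intervals and ratios of gene pairs normal-approximation intervals on the log scale. Reads are not independent molecules, so these cover counting error only. No ratio is given where both libraries had 3 counts or fewer. Gene types, strands and exons came from GENCODE release 29 by gene identifier.

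The members, the lists and the tests were chosen with earlier results of these data known. Named were the members, S100 genes with counts, up to 4 expressed genes per list with the largest absolute log2 ratio, the neighbours nearest to a member or past 2-fold, and markers; 1 listed gene is not reported here. Lists not named in the report were blood markers (1 of 8 expressed, CD68, log2 ratio -0.38, 0 past 2-fold) and keratinocyte markers (1 of 8 expressed, KRT10, -0.23, 0 past 2-fold). The ratio procedure was run on simulated counts that held Poisson error only. That run had no variation between cultures, so it cannot judge the differences between these 2 libraries. Alternatives were other pseudocounts, filters, scalings, thresholds, CPM with a prior of 0.5, and summing overlapping entries. Merged exon lengths and TPM without small RNAs were added after the data were seen. Computation used Python 3.11.15 with scipy 1.17.1, numpy 2.4.6, pandas 2.3.3 and, for plots, matplotlib 3.10.9. The per-gene table holds nothing on splicing.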

Additional observations from a re-analysis of the deposited data

How the results depend on the processing

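No paired analysis was possible because each group is a single library. The median log2 ratio of the expressed S100 members was -0.51 as deposited, -0.42 with no filter, -0.64 over members of at least 5 FPKM, -0.36 after median centring, -0.33 with upper-quartile scaling, -0.35 without the small RNAs in the totals, -0.93 with TPM rescaling and -0.44 with TPM rescaling without the small RNAs. At least 2-fold lower were 3 members and higher 1 under all settings but TPM rescaling (4 and 0) and a 1.5-fold threshold (4 and 1). The higher and lower expressed genes, 227 and 555 as deposited, were 469 and 1129 with a pseudocount of 0.1, 131 and 309 over genes of at least 5 FPKM, 345 and 358 after centring, 341 and 389 with upper-quartile scaling, 107 and 1405 with TPM rescaling, and 380 and 500 without the small RNAs in the totals. They were 505 and 1239 for CPM with a prior of 0.5, 757 and 1631 at 1.5-fold, and 893 and 1610 for TPM without the small RNAs. TPM values run on a larger scale once these RNAs are left out, so the filter and pseudocount reach fewer genes. Of 95 values of single members under an alternative, 63 stayed within the margin of their counting interval. The sign differed from that of the deposited scale for 8, all of S100A2 or S100A11. Depth limits S100P and S100A2 most. Variation between cultures cannot be judged from 1 library per group.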
